A study of Mus musculus with 8 samples.

Results

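The potassium channel genes of Neuro2a cells are described here. Neuro2a is a mouse neuroblastoma line. Of the 55367 genes in the deposited count table, 92 carry a name of the form Kcn, 1 or 2 letters for the subfamily and a number. All 92 are annotated as protein coding. A gene was called expressed when its mean over the 6 libraries with counts was at least 0.5 CPM, the count scaled to the total of its library. This held for 36 genes.

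The study used CRISPR activation (CRISPRa), in which a catalytically inactive Cas9 of Staphylococcus aureus (sadCas9) fused to the activator VP64 is brought to a gene by a guide RNA. The series is directed at the sodium channel gene Scn2a. CRISPRa cultures received 750 ng of guide plasmid and 750 ng of sadCas9-VP64 plasmid. Cultures of the other group, called no sgRNA, received sadCas9-VP64 without a guide, in an amount the labels do not give separately. Both groups therefore carry sadCas9-VP64, and the guide plasmid is the difference the labels name. Whether the amount of sadCas9-VP64 or of total plasmid also differed was not tested. Counts of poly(A)-enriched RNA were analysed for 3 libraries of each group, numbered 2, 3 and 5 for CRISPRa, while those of the control carry 2, 3 and 4. The labels do not say whether libraries came from separate cultures, so the p-values measure the spread between these libraries, which may be technical.

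Potassium channels let potassium leave the cell and so hold the membrane near its resting potential and end the action potential. Voltage-gated alpha subunits open on depolarisation and form the pore as tetramers. Silent modifier subunits reach the membrane only together with certain voltage-gated partners. Inward rectifiers and tandem-pore-domain channels set the resting potential, and calcium-activated channels couple firing to calcium entry. Accessory subunits change gating or surface delivery without forming a pore.

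The libraries held between 29739422 and 34248514 counts, of which 15967 to 19313 fell on the 92 genes. Scn2a had 267, 279 and 231 counts in the CRISPRa libraries, in that order, and 190, 193 and 130 in the controls. Its difference was 0.48 on the log2 scale (SE 0.19, edgeR adjusted p 0.0899), which did not pass the threshold of 0.05 used below. CRISPRa replicate 5 and no-sgRNA replicate 4 stood further from the other replicates of their groups, with a chi-square per degree of freedom of 15.03 to 18.7, than the pairs of replicates 2 and 3, with 4.87 and 6.22. Of 9 neuroblast and neuronal markers, 8 were expressed and tested. Chga (0.33 on the log2 scale, edgeR adjusted p 0.0025) and Tubb3 (0.20, 0.0486) rose and Hand2 (-0.43, 0.000507) fell. Myeloid markers summed to 0.0876 to 0.279 CPM in the CRISPRa libraries and 0.135 to 0.461 CPM in the others. Fibroblast markers summed to 11.6 to 16.4 CPM with CRISPRa and 21.3 to 23.6 CPM without the guide. Pdgfra made up most of that sum, at 12.8 and 20.5 CPM on average, and fell. Of the other 2 fibroblast genes tested, Col1a1 was at 0.75 and Dcn at -0.50 on the log2 scale without passing, and Col3a1 was at 0. Endothelial markers averaged 10.1 and 11.5 CPM in sum. Their most abundant gene, Pecam1, was at -0.47 on the log2 scale (edgeR adjusted p 0.103), Cdh5 rose from 0.403 to 1.71 CPM, and Kdr was at 0. Their part in the differences below was not tested.

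Detection differed by subfamily. Of the 92 genes, 37 (40.2%) had 0 counts in all 6 libraries and 19 had counts but a mean under 0.5 CPM. Among the 21600 protein-coding genes of the table, 28.0% had 0 counts throughout and 56.1% reached a mean of 0.5 CPM, against 39.1% of the potassium channel genes. A gene at 0 counts was not detectable at a limit of 3 counts, which is 0.0876 to 0.101 CPM in a library.

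**Figure D1:**
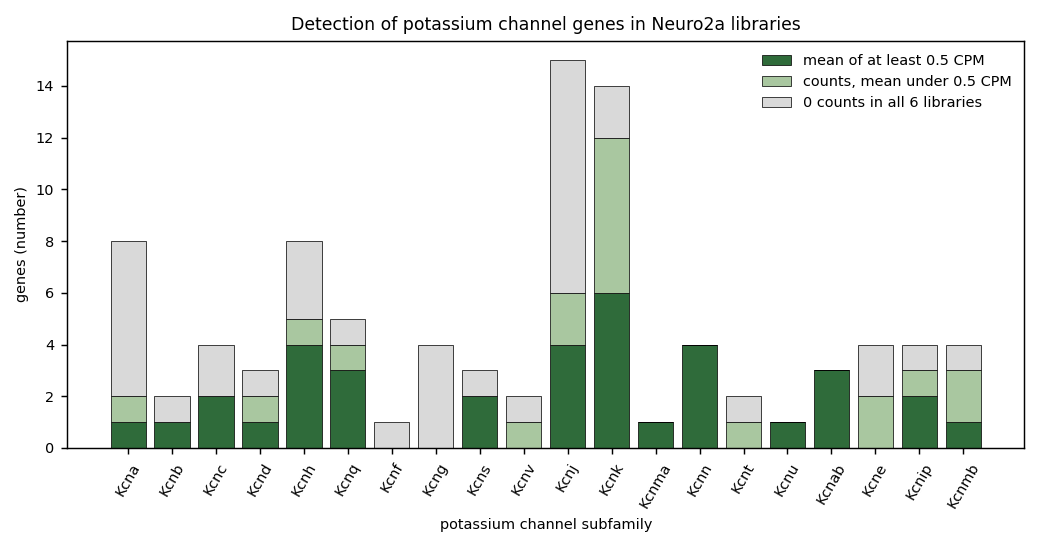
Number of potassium channel genes per subfamily (bars, stacked), split into genes with a mean of at least 0.5 CPM over the 6 libraries, genes with counts but a lower mean, and genes with 0 counts. All 4 Kcnn and all 3 Kcnab genes are expressed, while no Kcne, Kcnf, Kcng, Kcnt or Kcnv gene is.

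Of 30 voltage-gated alpha subunit genes, 12 were expressed. Among them were Kcna7, Kcnc1, Kcnd1, 4 of 8 Kcnh genes and 3 of 5 Kcnq genes. Of the 8 Kcna genes, some of which encode axonal low-threshold channels, 6 had 0 counts. Those 6 lie in a pair of clusters, Kcna3, Kcna2 and Kcna10 on chromosome 3 and Kcna5, Kcna1 and Kcna6 on chromosome 6, so each cluster was listed at 0 along its length. Kcnq3, a subunit of the M-channel, also had 0 counts.

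The silent modifiers were nearly absent. Of 10 genes, 7 had 0 counts, all Kcng genes and Kcnf1 among them, and only Kcns1 and Kcns2 were expressed.

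Inward rectifiers were expressed for 4 of 15 genes, and 9 had 0 counts. Kcnj6 and Kcnj9, subunits of the G-protein-gated rectifier, were expressed at 0.601 and 1.05 CPM over the 6 libraries, and Kcnj3 and Kcnj5 of the same channel group had 0 counts. Kcnj9 and Kcnj10 lie 11.9 kb apart on chromosome 1, and Kcnj10 had 0 counts. Kcnj11, the pore of the ATP-sensitive channel, had 0 counts, as did the genes of its sulphonylurea receptors, Abcc8 and Abcc9. Of 14 tandem-pore-domain genes, 6 were expressed and 2 had 0 counts.

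Genes classed as calcium- or sodium-activated, a class in which the pH-sensitive Kcnu1 was counted, were expressed for 6 of 8 members. Expressed were Kcnma1, which encodes the large-conductance BK channel, Kcnu1 and all 4 Kcnn genes. Accessory subunits were expressed for 6 of 15. These included all 3 Kcnab genes, cytosolic beta subunits of voltage-gated channels, and Kcnip3, a calcium-binding protein of the Kcnd channels. Kcnd2 and Kcnd3, main partners of the Kcnip proteins, had 0 counts and at most 4 counts in a library.

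The threshold fell between close neighbours. Just above 0.5 CPM were Kcnip4 at 0.5002 and Kcnh3 at 0.550 CPM, and just below were Kcnh7 at 0.433 and Kcnmb4 at 0.328 CPM. Of these 4 genes, none passed the test described below.

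A single gene made up much of the family's RNA. Kcnh2 encodes the pore of the ERG channel, which carries the rapid delayed rectifier current, and held 44.9% of the summed CPM of the 92 genes. Its CRISPRa libraries read 249, 259 and 235 CPM, and its controls 261, 268 and 226 CPM. The groups overlapped, and both the highest and the lowest library were no-sgRNA libraries.

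Levels of different genes were compared per kilobase of exon length. Kcnh2 came first, at 51.5 ± 3.34 CPM per kb (SD, n = 6 libraries), and only 3.63% of protein-coding genes had a higher level per kilobase. Kcnk3, an acid-sensitive background channel of the TASK type, followed at 10.7 ± 1.22, and Kcnab2 at 7.56 ± 0.562 CPM per kb. These 3 levels did not overlap across the 6 libraries. Kcnip3 stood lower, at 3.84 ± 0.468 CPM per kb.

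**Figure D2:**
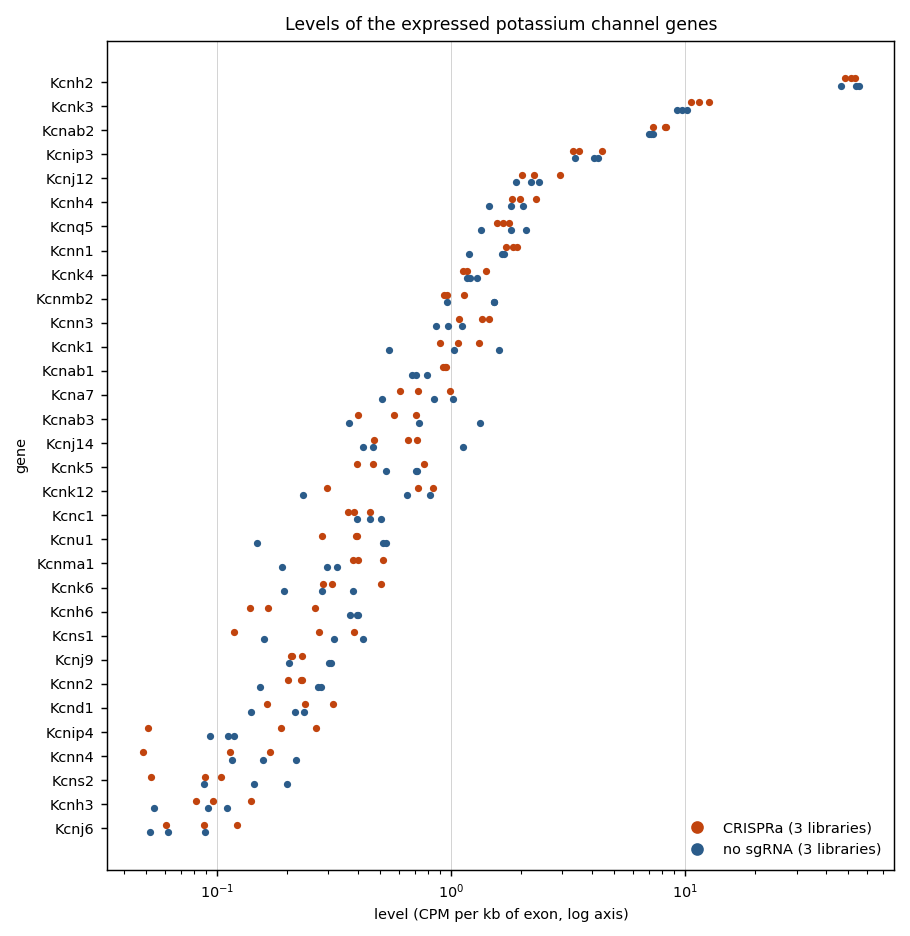
Level of 32 expressed genes in each library, in CPM per kilobase of exon on a log axis, ordered by the mean, with 3 CRISPRa and 3 no-sgRNA points per gene. Kcnh2, at 51.5 on average, lies apart from all others, and most genes show both groups side by side.

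RefSeq start windows (build GRCm38.p6) were matched for 67 of the 92 genes, too few for a comparison of base composition over the family. The 250 bases before a start are shown for Kcnh2, the most abundant member, and for Kcnn3, the member with the smallest adjusted p in the authors' deposited table. CG dinucleotides are in capitals. The Kcnh2 window is chr5:24329592-24329841 on the minus strand, inside an intron of the gene's annotated span (24319589 to 24351604), since this start is not the most upstream one. The Kcnn3 window is chr3:89519914-89520163 on the plus strand and ends 1 base before the annotated span (89520164 to 89675132).
Kcnh2: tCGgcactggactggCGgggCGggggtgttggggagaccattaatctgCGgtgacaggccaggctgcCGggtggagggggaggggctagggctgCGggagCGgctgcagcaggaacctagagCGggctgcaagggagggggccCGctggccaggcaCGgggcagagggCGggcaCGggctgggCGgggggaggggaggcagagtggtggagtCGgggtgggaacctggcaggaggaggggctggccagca
Kcnn3: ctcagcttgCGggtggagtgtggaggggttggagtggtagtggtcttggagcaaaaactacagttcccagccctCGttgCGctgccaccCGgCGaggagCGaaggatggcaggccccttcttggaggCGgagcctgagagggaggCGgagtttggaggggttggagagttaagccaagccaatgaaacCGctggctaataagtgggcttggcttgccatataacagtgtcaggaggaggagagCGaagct
The Kcnh2 window holds 14 CG dinucleotides, a number reached by 29.4% of the 32851 windows in the RefSeq table, and the Kcnn3 window holds 10, reached by 37.8%. The counts do not show which start was used.

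The comparison of CRISPRa with no sgRNA asked which of these genes differed when the guide for Scn2a was present. Kcnma1 rose, and most of the family did not pass the test. The test was edgeR's quasi-likelihood test over all 15117 genes that passed its filter on low counts, with Benjamini-Hochberg adjustment over all of them. Changed means an adjusted p under 0.05 throughout. Of the 92 genes, 38 were tested, the 36 expressed ones with Kcnh7 and Kcnmb4. Changed were 2 of the 38 (5.26%), 1 higher and 1 lower, against 18.7% of all genes tested, with 9.47% of all genes higher and 9.25% lower.

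This share moved with expression over all genes. Of all tested genes with a mean of at least 5 CPM, a limit set after the values were seen, 24.6% were changed, and of those under it 4.94%. The potassium channel genes had 16 members at or above 5 CPM, of which 2 were changed (12.5%), and 22 tested members below it, of which none was changed by this test and 1, Kcnh6, had an unadjusted p under 0.05. At an unadjusted p under 0.05 there were 7 of 38 (18.4%), against 31.3% of all genes. The groups did not overlap for 8 of the 38 (21.1%), 6 higher and 2 lower, against 36.4% of all genes, with 18.9% of all genes higher and 17.5% lower. Of these 8 genes 7 had at least 5 CPM, a level at which 43.7% of all genes did not overlap.

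Log2 fold changes were positive for 20 and negative for 18 of the 38 tested genes, with a median of 0.060, and the median over all genes tested was -0.0071. The median size regardless of sign was 0.26 for the tested members and 0.20 for all genes. Among genes of at least 5 CPM it was 0.17 for the members and 0.16 for all. The signed median was 0.13 for members of at least 5 CPM (11 positive, 5 negative), against -0.014 for all genes at that level, and -0.12 for tested members below it (9 positive, 13 negative). Summed over the 92 genes, the CRISPRa libraries averaged 565 ± 26.0 CPM and the controls 547 ± 47.0 CPM (SD, n = 3), with overlap.

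**Figure D3:**
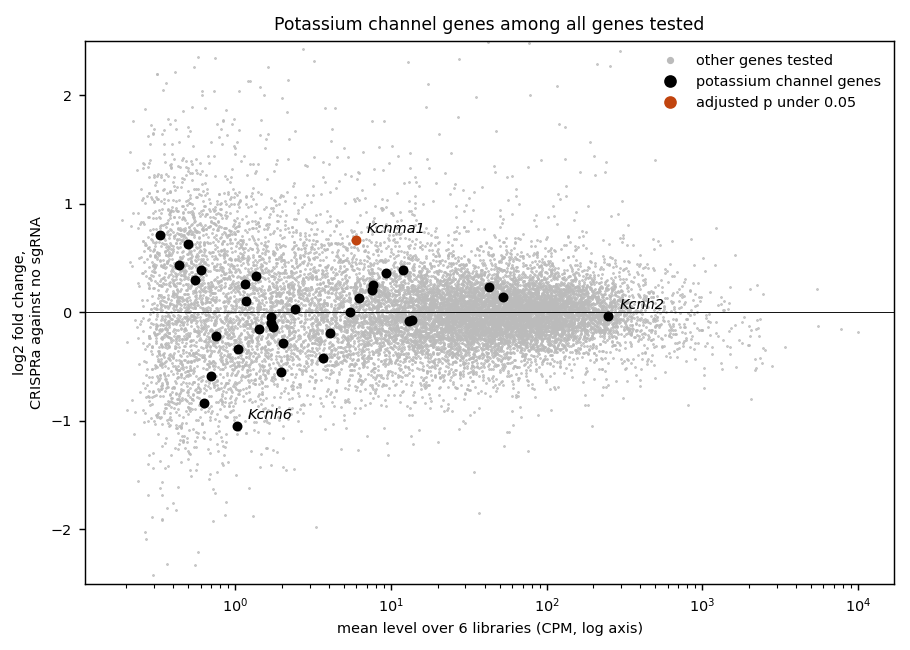
Log2 fold change (CRISPRa against no sgRNA) against mean level in CPM on a log axis for all genes tested, with 34 tested potassium channel genes as large points and those with an adjusted p under 0.05 in orange. The vertical axis ends at 2.5, which leaves out 93 other genes, and the potassium channel genes lie within the spread of the other genes at their level.

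Kcnma1, on chromosome 14 (23289431 to 24014491, minus strand, GRCm38), read 6.51, 6.79 and 8.71 CPM in the CRISPRa libraries 2, 3 and 5. Controls 2, 3 and 4 read 5.04, 5.55 and 3.21 CPM. The groups were fully apart, with CRISPRa replicate 5 highest and no-sgRNA replicate 4 lowest. Group means were 7.34 ± 1.20 and 4.60 ± 1.23 CPM (SD, n = 3). The difference was 0.66 on the log2 scale, or 1.58-fold (SE 0.21, edgeR adjusted p 0.0373). An exact permutation test, two-sided, gave p = 0.1, the smallest that 3 against 3 allows. The call ended when CRISPRa replicate 3 or 5 or no-sgRNA replicate 2 or 4 was left out, with log2 fold changes from 0.47 (without no-sgRNA replicate 4) to 0.72 (without no-sgRNA replicate 2), and when each library's trend with gene length was removed (0.55, adjusted p 0.0695). On the 4 libraries numbered 2 and 3 in both groups it was 0.33 (edgeR adjusted p 0.269), without the 2 libraries that stood apart from their groups.

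Kcnma1 overlaps exons of an opposite-strand gene, and no source says whether reads were assigned by strand. The share was 5.99% of Kcnma1, with 4930519K11Rik, which had at most 4 counts in a library. Other genes whose levels are given here overlap opposite-strand genes in the same way. Among them are Kcnmb4 over 31.5%, Hcn3 over 17.1%, Kcnip4 over 7.36% and Kcnk3 over 5.76% of their exonic bases.

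**Figure D4:**
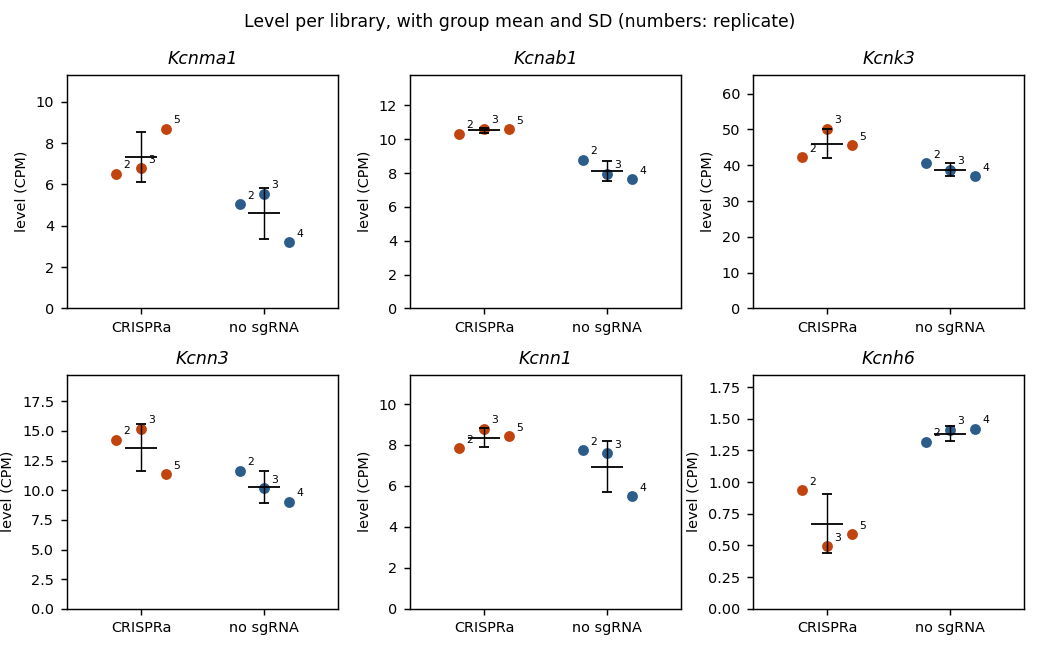
Level in CPM of 6 potassium channel genes in each library (points, numbered by replicate), with the group mean and SD as a black bar. Kcnma1 passed the adjusted threshold, and of the 6 genes shown only Kcnn3 has overlapping groups.

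A group of 4 genes lay behind the threshold, all with an unadjusted p under 0.05 and an adjusted p under 0.1 in edgeR's test. At an adjusted p under 0.1 there were 6 of the 38 tested members, against 3855 of all 15117 genes tested. Kcnk3 read 42.3, 50.3 and 45.6 CPM under CRISPRa and 40.6, 38.8 and 37.0 CPM in the controls, with no overlap. Its log2 fold change was 0.23 (SE 0.09, edgeR adjusted p 0.0719), and with 1 library left out it ran from 0.17 (adjusted p 0.288, without CRISPRa replicate 3) to 0.30 (0.048, without CRISPRa replicate 2), passing in the last alone. Kcnab1, a beta subunit that gives voltage-gated channels fast inactivation, stood at 10.3, 10.6 and 10.6 CPM against 8.80, 7.97 and 7.63 CPM. Its groups did not overlap either, and its log2 fold change was 0.36 (SE 0.13, edgeR adjusted p 0.0748).

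Kcnn3, a small-conductance calcium-activated channel, stood at 14.2, 15.2 and 11.3 CPM against 11.7, 10.2 and 9.02 CPM. CRISPRa replicate 5 lay below no-sgRNA replicate 2, so its groups overlapped. The log2 fold change was 0.39 (SE 0.14, edgeR adjusted p 0.0732), and with 1 library left out it ran from 0.31 (adjusted p 0.245, without CRISPRa replicate 3) to 0.51 (0.0232, without CRISPRa replicate 5), passing in the last alone. Kcnh6, a relative of Kcnh2, had 32, 16 and 19 counts with CRISPRa and 40, 42 and 46 without the guide, the largest difference in size among the tested members at -1.05 on the log2 scale (SE 0.41, edgeR adjusted p 0.0899).

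**Figure D5:**
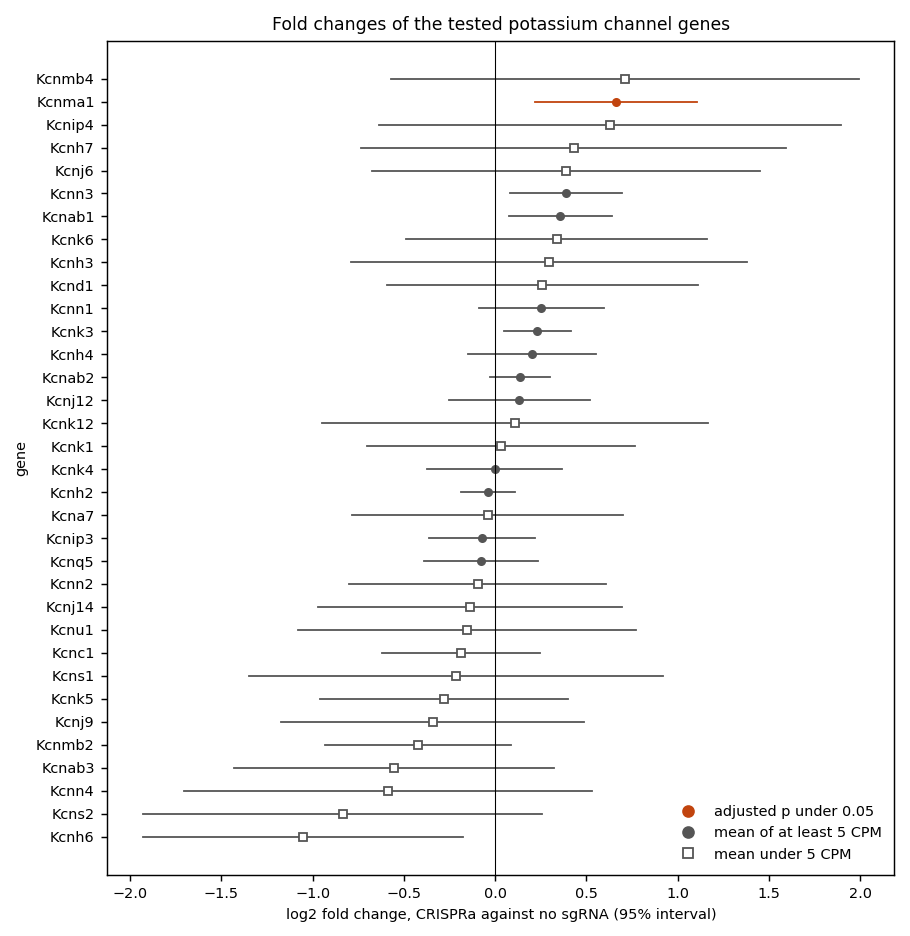
Log2 fold change with its 95% interval for 34 tested potassium channel genes, CRISPRa against no sgRNA, with filled circles for a mean of at least 5 CPM, open squares below it and orange for an adjusted p under 0.05. Kcnma1 at 0.66 is marked, and intervals widen for the weakly expressed ones.

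The abundant members were measured closely. The log2 fold change of Kcnh2 was -0.04 with a 95% interval from -0.19 to 0.11, and that of Kcnab2 was 0.14 (-0.03 to 0.30). Standard errors ran from 0.07 to 0.21 for members of at least 5 CPM and from 0.20 to 0.60 for those below. The interval excluded a change of 2-fold in either direction for 15 of the 16 members of at least 5 CPM, and for 22 of all 38 tested. The interval of Kcnip4, from -0.64 to 1.89, is an example of one that includes it.

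The member with the highest level per kilobase was followed in most subfamilies with an expressed gene. Kcna7 read 1.58, 1.32 and 2.17 CPM under CRISPRa and 1.84, 2.22 and 1.11 CPM in the controls. Kcnd1, an A-type channel, read 1.26, 1.66 and 0.868 CPM under CRISPRa and 1.25, 1.14 and 0.741 CPM in the controls. Kcns1 read 0.321, 1.05 and 0.744 CPM under CRISPRa and 0.856, 1.14 and 0.432 CPM in the controls. The groups of these 3 weakly expressed genes overlapped, and their log2 fold changes were -0.04, 0.26 and -0.22.

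Kcnj12, a strong inward rectifier, read 8.03, 6.21 and 5.52 CPM under CRISPRa and 6.56, 5.25 and 6.02 CPM in the controls. Kcnu1, the pH-sensitive channel of sperm, read 1.05, 1.48 and 1.49 CPM under CRISPRa and 1.91, 1.98 and 0.556 CPM in the controls. Both overlapped, with log2 fold changes of 0.13 and -0.16. Kcnn1, a small-conductance calcium-activated channel, read 7.85, 8.79 and 8.43 CPM under CRISPRa and 7.74, 7.60 and 5.50 CPM in the controls. Its groups did not overlap, but the lowest CRISPRa library and the highest control lay side by side, and its log2 fold change was 0.25 (SE 0.16, edgeR adjusted p 0.309).

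Among accessory subunits, Kcnab2 read 51.2, 57.7 and 57.8 CPM under CRISPRa and 49.8, 51.0 and 49.1 CPM in the controls. Its groups did not overlap, and the edgeR adjusted p was 0.248. Kcnip3 read 12.5, 15.6 and 11.8 CPM under CRISPRa and 15.1, 14.6 and 12.1 CPM in the controls, with a log2 fold change of -0.07. Kcnmb2, a beta subunit of the BK channel, read 2.92, 3.57 and 3.01 CPM under CRISPRa and 3.00, 4.77 and 4.79 CPM in the controls, with -0.42 (edgeR adjusted p 0.246). The groups of Kcnip3 and Kcnmb2 overlapped.

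The genes beside the 0.5 CPM threshold rest on few counts. Kcnip4 read 0.964, 0.184 and 0.682 CPM under CRISPRa and 0.428, 0.404 and 0.340 CPM in the controls. Kcnh3, a relative of Kcnh4, read 0.467, 0.553 and 0.806 CPM under CRISPRa and 0.527, 0.639 and 0.309 CPM in the controls. Kcnmb4, a BK beta subunit, read 0.526, 0.400 and 0.310 CPM under CRISPRa and 0.231, 0.135 and 0.371 CPM in the controls. The groups of all 3 overlapped.

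Summed by class, calcium- or sodium-activated genes ran from 31.9 to 34.6 CPM under CRISPRa and from 20.5 to 29.3 CPM in the controls, and tandem-pore-domain genes at 54.2 to 63.2 CPM against 49.4 to 54.5 CPM. The first of these sums did not overlap between the groups, alone among the 6 classes, and Kcnn3, Kcnn1 and Kcnma1 hold most of it. Of the 6 tested genes of that class, log2 fold changes were positive for 3 and negative for 3, with a median of 0.079. How often sums of other gene sets lack overlap was not tested. Voltage-gated alpha subunits, 67.9% of the family's CPM, averaged 377 and 379 CPM, accessory subunits 85.8 and 79.4, inward rectifiers 9.96 and 9.47 and silent modifiers 1.18 and 1.62 CPM in the CRISPRa and control groups.

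Of the 10 potassium channel genes on chromosome 2, which carries Scn2a, the nearest is Kcnh7, at 2.44 Mb from the Scn2a span. It had 25, 15 and 10 counts with CRISPRa and 10, 10 and 14 without the guide, and the groups overlapped (log2 fold change 0.43, SE 0.54, edgeR adjusted p 0.638).

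The authors' deposited table of their own comparison, which covers 8 samples by its name, lists 45 of the 92 genes, 35 of them with an adjusted p. The direction of that table is not stated. All 2803 genes that were changed in the 6 libraries and are listed in it carry the same sign, so positive values were taken as higher with CRISPRa. Of the 38 tested potassium channel genes, all listed, 7 carry the other sign there, none of them changed in the 6 libraries. The authors' deposited table puts under an adjusted p of 0.05 a set of 6 of the 35 (17.1%), 5 higher and 1 lower, against 28.6% of all its genes. Kcnma1 (log2 fold change 0.46, adjusted p 0.0374) is among the higher ones in the authors' deposited table. The further 4 higher genes in the authors' deposited table are Kcnn3 (0.56, adjusted p 6.15e-06), Kcnab1 (0.37, adjusted p 0.00653), Kcnk3 (0.28, adjusted p 0.00658) and Kcnn1 (0.38, adjusted p 0.0358). The authors' deposited table shares samples with the count table, so its values are no independent check. Kcnh6, the member with the largest difference in the 6 libraries, is given in the authors' deposited table with -0.42 (adjusted p 0.505).

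Partners of potassium channels outside the naming rule were read from a list of 26 genes, of which 17 were tested. Of these 17, 2 rose and 4 fell (35.3%), against 18.7% changed over all genes. Of the 13 tested partners with at least 5 CPM 46.2% were changed, against 24.6% of all genes at that level. The list, which also holds Rest and its corepressor Rcor1, was chosen with earlier results of these data known. These shares therefore describe the list and are no test of channel partners as a group.

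Ank2, an ankyrin that anchors membrane proteins to the spectrin skeleton, averaged 96.4 ± 6.17 CPM under CRISPRa and 66.1 ± 10.7 CPM in the controls (SD, n = 3). It rose by 0.53 on the log2 scale (SE 0.10, edgeR adjusted p 0.00148). It has 35510 exonic bases, and with the gene-length trend of each library removed its log2 fold change was 0.31 and still passed. Ank3, the ankyrin of the axon initial segment, was at 0.03 (adjusted p 0.876). The genes that fell did so by little. Vapb, a membrane protein of the endoplasmic reticulum, was at -0.23 (edgeR adjusted p 0.0182), Dlg4, the postsynaptic scaffold PSD-95, at -0.23 (0.0302), Gnb2, a G-protein beta subunit, at -0.21 (0.0315) and Rcor1, a corepressor that acts with Rest, at -0.20 (0.0372). Each of these 4 had no overlap between the groups, as had 43.7% of all genes of at least 5 CPM. With 1 library left out, Vapb passed in 4 of 6 fits, and Dlg4, Gnb2 and Rcor1 in 1 of 6 each. Gnb1, highest of the list in CPM though not per kilobase, at 927 CPM over the 6 libraries, averaged 932 ± 4.75 and 922 ± 31.1 CPM in the groups (SD, n = 3), with a 95% interval of the log2 fold change from -0.13 to 0.13.

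HCN channels, related cation channels that open on hyperpolarisation, were read from Hcn2, Hcn3 and Hcn4, all expressed. Hcn2 averaged 73.7 ± 9.88 CPM under CRISPRa and 76.2 ± 3.47 CPM in the controls, and Hcn4 25.1 ± 1.92 and 25.8 ± 2.90 CPM (SD, n = 3). Hcn3 lay at 12.8 CPM over the 6 libraries. None of the 3 tested genes was changed in edgeR's test, in DESeq2 or in limma-voom, and none had an unadjusted p under 0.05 in edgeR's test.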

How the data were processed

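RNA of 8 Neuro2a samples, 4 per group, is listed in the labels, and the titles gave the groups. Counts were analysed for 6 of them, and the other two samples were not analysed here. The authors deposited whole-number read counts per gene, not normalised, with STAR 2.5.1b, featureCounts and build mm10 (GRCm38) named in the submitters' processing notes. Annotation, strandedness and the treatment of read pairs are not given in the sources used here. Among counts of 1 to 10, 73.6% to 75.1% were even in each library, so a count of 2 may be a single fragment, and limits cover counting error only. The authors' deposited comparison holds, per the file headers, a signal (normalised counts averaged over samples), log2 fold changes, their SE, the Wald score, and p-values before and after adjustment. None was recomputed. The processing notes name DESeq2.

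Fits used edgeR 4.0.16 in R 4.3.3 on all genes, with Benjamini-Hochberg adjustment over 15117 genes. The settings were filterByExpr with a minimum count of 10, TMM scaling, glmQLFit, glmQLFTest and no covariate. The fits were also run on simulated data with fewer changed genes, whose changes were larger than those of most members. That run checked the code, not the power for changes of the size seen here. The SE is the log2 fold change divided by the square root of F. Coordinates are 1-based spans of the count table, and 90 of the 92 match GENCODE M21. Alternatives were other scalings, filters and thresholds, DESeq2 1.42.0, voom weights in limma 3.58.1, fits that omit a library, the replicate number as a block, gene-length trends subtracted per library by lowess (span 0.2) and, added after the data were seen, counts divided by 2. The members and lists were chosen with earlier results of these data known. Named with values per library are changed members, the leading member per kilobase of most subfamilies, members nearest the 0.5 CPM threshold, and changed or most abundant partner genes; others, such as Kcnk3, Kcnab1, Kcnn3 and Kcnh6, were chosen after their values were seen. Some genes, a changed member and a changed partner gene among them, are not reported here by name and are left out of the figures that name genes, while counts and sums include them.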

Additional observations from a re-analysis of the deposited data

How the results depend on the processing

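The number of changed potassium channel genes, 2, was 1 with library-size scaling, with limma-voom and with the gene-length trend removed, where fewer passed, 0 at an adjusted p under 0.01 (7 at an unadjusted p under 0.05) and 6 at 0.1. Leaving out 1 library gave from 0 (without CRISPRa replicate 3, with 4 at an unadjusted p under 0.05 in edgeR's test) to 3. Kcnma1 passed in 9 of 13 alternatives that kept all replicates or a fixed subset and in 2 of 6 fits that left out 1 library. Its outcomes at the thresholds of 0.1 and 0.01 were fixed by its edgeR adjusted p of 0.0373 in the main fit. All alternatives use the same counts, so they are not independent of each other. Apart from the thresholds, the cause of these differences was not tested. Equal replicate numbers did not deviate together (correlation across genes 0.0045 over the shared numbers 2 and 3). This value rests on those shared numbers alone, so it cannot tell whether libraries of equal number shared a batch. With the replicate block on those 4 libraries 2 genes were changed, Kcnn3 among them, as in the same libraries unblocked. The block gave 2 changed potassium channel genes and 6 partner genes, the same numbers as in the test on all libraries. Only 1 of the 2 potassium channel genes was the same, and Kcnma1 did not pass with the block (0.33, edgeR adjusted p 0.264). Changed partner genes numbered 2 at an adjusted p under 0.01 and from 2 to 5 with 1 library left out. Expressed genes numbered 39 at a threshold of 0.25 CPM and 30 at 1 CPM, and 35 with CPM on TMM-scaled library sizes.

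Signs turned for some genes near 0, none of them changed. With the gene-length trend removed Kcna7 was at 0.017, and with limma-voom Kcnu1 was at 0.034. With 1 library left out, log2 fold changes ran from -0.27 to 0.18 for Kcna7, from -0.10 to 0.0052 for Kcnh2, from -0.20 to 0.013 for Kcnip3, from -0.024 to 0.25 for Kcnj12, from -0.61 to 0.14 for Kcns1 and from -0.55 to 0.11 for Kcnu1. Over all genes, 1417 to 3855 were changed in the alternatives with no single library left out, against 2829, and the lower figure is that at an adjusted p under 0.01.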

Other observations

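Some weakly detected genes, chosen after their values were seen, had uneven counts between the groups without passing the filter on low counts. Kcne2, an accessory subunit known to join Kcnh2 and Kcnq channels, had 10, 2 and 9 counts in CRISPRa replicates 2, 3 and 5 and 0, 0 and 2 in no-sgRNA replicates 2, 3 and 4. Kcnq1 had 10, 1 and 0 counts with CRISPRa and 3, 19 and 12 without the guide, and it entered the test and passed in 1 fit only, that without CRISPRa replicate 2. Kcnt1, a sodium-activated channel, had 0 counts in all CRISPRa libraries and 8, 4 and 0 without the guide. At most 19 counts lie behind any of these values.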
